A study of Triticum aestivum with 2 samples.

Results

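The dense clusters of MNase hypersensitive sites (MHSs) are stretches of the wheat genome where 6 or more open sites followed each other with gaps of at most 2000 bp. They were found by pooling the spikelet and seedling MHSs, merging those that overlapped into intervals, and joining neighbouring intervals into chains across such gaps. Of 274519 chains, single intervals included, 253 had 6 or more intervals and are called clusters here. They held 1601 of the 378324 merged intervals, or 0.423%. The clusters were chosen by the measured positions of the MHSs in both lists, so their size, spacing and tissue makeup are given as a description, with no test.

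The material came from common wheat (Triticum aestivum) of the cultivar Chinese Spring, wild type in genotype and untreated, sampled as spikelets at the booting stage and as seedlings, 10 days old by the labels and 9 days by the methods (whole by the labels, and in the methods both whole and above-ground parts). Each tissue had 2 biological replicates, which the authors merged before calling peaks with MACS2, so there is 1 list for each tissue and no value below has a replicate check. The lists held 277119 spikelet and 289446 seedling MHSs, placed on the 21 chromosomes of version 1.0 of the IWGSC reference, each cut into 2 sequence parts. Spikelets and seedlings are mixtures of cell types, and sites open in different cells of a tissue cannot be told apart from sites open in the same cell.

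In nuclei most DNA is wrapped around nucleosomes, and MNase, an enzyme that cuts exposed DNA, releases short fragments where a nucleosome is missing or loose. MH-seq reads these short fragments, so that an MHS marks DNA that was open to the enzyme, as promoters, enhancers and other regulatory elements typically are. Genes with several regulatory elements can have a run of open sites close together. Genes and sequence under the clusters were not analysed here.

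Most clusters were just large enough to count. There were 189 chains of 6 intervals, 50 of 7, 9 of 8 and 5 of 9, and no chain was longer. Just outside the rule lay 768 chains of 5 intervals. The clusters spanned 3274 to 13858 bp with a median of 6853 bp, and together covered 1728 kb of the 14064.6 Mb of chromosome length seen in the lists. Chains of 6 spanned a median of 6523 bp and chains of 5 a median of 5360.5 bp. The merged intervals filled a median of 36.3% of a cluster's span, with a range of 20.0% to 89.0%. Open sites thus took up less sequence than the stretches between them in a typical cluster.

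The 1348 gaps inside the clusters had a median of 743.5 bp, and 37.7% of them were 500 bp or less. In chains of 2 to 5 intervals the median gap was 673 bp. Cluster intervals had a median width of 336 bp, against 361 bp outside. The clusters were mostly far from each other, but had other intervals about them. Within 50 kb on either side they had a median of 5 other intervals and a range of 0 to 24, against a median of 4 around the other chains, and 20 clusters had none. The next cluster on the same sequence part lay a median of 26021 kb away, and only 2 clusters had the next one within 100 kb. The closest pair, on part 1 of chromosome 3D, was 53.9 kb apart.

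Intervals with MHSs of the spikelet list only took a larger share of the clusters than of all merged intervals. Such an interval had no MHS in the other list, which does not show that the site was closed in that tissue. Of the 1601 cluster intervals, 623 had spikelet MHSs only (38.9%, 95% Wilson interval 36.6 to 41.3), against 23.9% of all merged intervals. A further 375 had seedling MHSs only (23.4%, 21.4 to 25.6), against 28.3% of all intervals. The remaining 603 had MHSs of both tissues (37.7%, 35.3 to 40.1), against 47.8% of all. These intervals cover counting error only, and the intervals of 1 cluster are neighbours, not independent draws. Because overlapping MHSs merge into 1 interval, a chain reaches 6 more easily where the MHSs of the tissues do not overlap. This bears on the share of both and so on the shares of 1 tissue. When the lists were cut to MHSs with q at most 1e-05, 107 clusters were left. The spikelet-only share was then 43.7%, against 29.9% of all intervals. The seedling-only share of 23.6% was then also above that of all intervals, 18.7%.

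The spikelet-only share was higher the more intervals a chain had, up to chains of 8. It was 22.0% in single intervals, 23.6% in chains of 2, 28.7% in chains of 3, 32.3% in chains of 4 and 35.6% in chains of 5. It was 38.7% (35.9 to 41.6) in chains of 6, 39.7% (34.7 to 44.9) in chains of 7 and 41.7% (31.0 to 53.2) in chains of 8. For the chains of 5 the interval was 34.1 to 37.2. The clusters thus lay at the upper end of a course that the shorter chains already showed, and no step lay at 6 intervals. The seedling-only share was 31.7% in single intervals and lay between 22.1% and 25.3% in chains of 2 to 8. In the 5 chains of 9 the shares were 33.3% spikelet only, 31.1% seedling only and 35.6% both, with intervals wide enough to hold the values of the chains of 6.

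**Figure D1:**
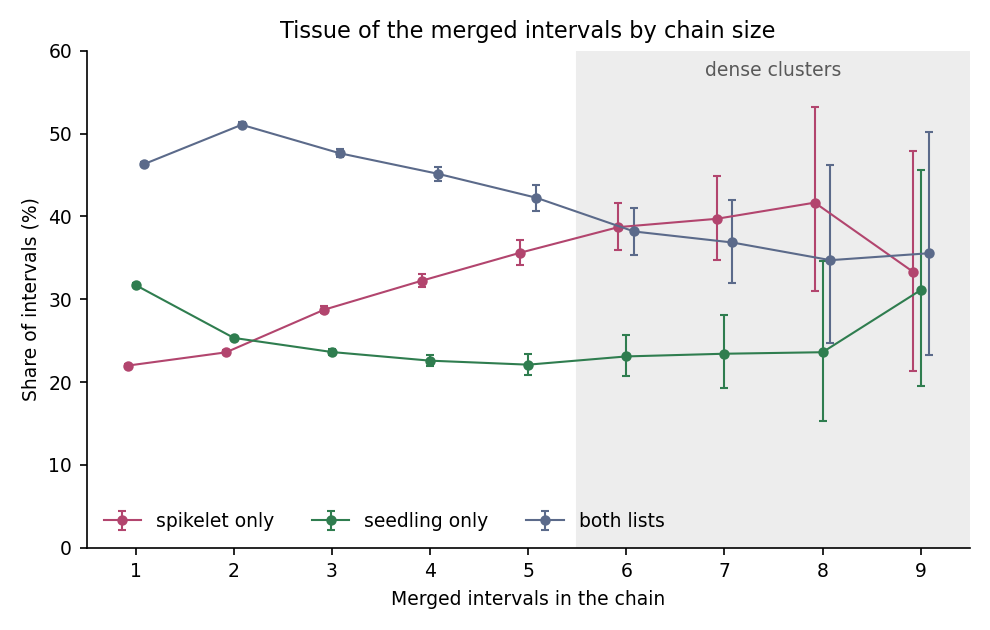
Share of merged intervals with MHSs of the spikelet only, the seedling only or both lists (vertical axis, %) against the number of intervals in the chain (horizontal axis). Bars are 95% Wilson intervals and grey marks the 253 clusters; the spikelet-only share was 22.0% in single intervals and 38.7% in chains of 6.

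Counted cluster by cluster, spikelet-only intervals outnumbered seedling-only ones in 144 of the 253 clusters (56.9%), the reverse held in 70 (27.7%), and the numbers were equal in 39. All 3 kinds of interval stood side by side in 177 clusters, or 70.0%. The typical cluster was thus a mixture, with some sites called in 1 tissue next to sites called in both. How many such clusters the shares of the 3 kinds would give by themselves was not computed. No cluster was made of shared intervals alone, and 24 had no shared interval. Spikelet-only intervals were the majority in 42 clusters, seedling-only intervals in 11 and shared intervals in 48. Towards the extremes the tissues differed more. At least 5 spikelet-only intervals were found in 22 clusters, against 1 cluster with at least 5 seedling-only intervals. No seedling MHS at all was found in 13 clusters (5.14%, 3.03 to 8.59), whereas 0 of 253 clusters lacked a spikelet MHS, which allows a share of up to 1.50%. Among the chains of 5, 23 of 768 had no seedling MHS and 2 had no spikelet MHS.

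Position within a cluster went with the tissue makeup. The outermost intervals, 1 at each edge of a cluster, were shared in 43.3% of cases (39.0 to 47.6), against 35.1% (32.3 to 37.9) of the inner ones. They were seedling only in 19.2% (16.0 to 22.8), against 25.4% (22.9 to 28.0) of the inner ones. The spikelet-only share was 37.5% at the edges and 39.5% inside, with overlapping intervals.

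Each list alone gave far fewer clusters by the same rule. The spikelet MHSs alone formed 71 chains of 6 or more, and the seedling MHSs alone formed 19. Of these, 59 and 18 lay inside a cluster of the pooled lists. In the clusters of the spikelet list alone, 47.7% of the MHSs (43.1 to 52.3) overlapped a seedling MHS, against 67.4% of the whole spikelet list. In those of the seedling list alone, 63.6% (54.6 to 71.7) overlapped a spikelet MHS, against 63.0% of the whole seedling list. The pooled clusters were thus for the most part built from both lists together.

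The MHSs in clusters were enriched less over their surroundings than other MHSs. Each MHS has a fold, the peak caller's ratio of reads piled up at its summit to the reads expected there (the local background), with 1 added to each. The 1239 spikelet MHSs in clusters had a median fold of 3.17, against 4.46 for spikelet MHSs outside. The 978 seedling MHSs in clusters had a median fold of 3.31, against 4.05 outside. The median of a cluster's MHSs lay under the median of the whole list in 244 of 253 clusters for the spikelet and in 197 of 240 for the seedling. A fold of 8 or more was reached by 0 of the 1239 spikelet MHSs in clusters, which allows up to 0.309%, against 6.31% of the spikelet list. It was reached by 7 of the 978 seedling MHSs in clusters (0.716%), against 4.69% of the seedling list.

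The lower fold went with a higher local background, not with fewer reads. The median local background of the spikelet MHSs was 12.5 reads in clusters and 5.68 outside, and that of the seedling MHSs 12.0 reads in clusters and 5.48 outside. At the summit, spikelet MHSs had a median pileup of 42 reads in clusters and 31 outside, and seedling MHSs 42 in clusters and 26 outside. MHSs in clusters thus held more reads than others, over a background that was raised further. A call needs more reads where the background is higher, so the higher pileup is in part set by the calling. The background exceeded 2 times the median of its list for 61.1% of the spikelet MHSs in clusters, against 4.42% of those outside, and for 59.5% of the seedling MHSs in clusters, against 5.59% of those outside. By chain size the median spikelet background was 4.96 reads in single intervals, 10.5 in chains of 5 and 12.2 in chains of 6, and the seedling background was 4.84, 10.3 and 11.6 reads in the same chains. The background is estimated from reads around each MHS, so neighbouring MHSs count into it. How much of the rise comes from the neighbours and how much from other reads was not tested.

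**Figure D2:**
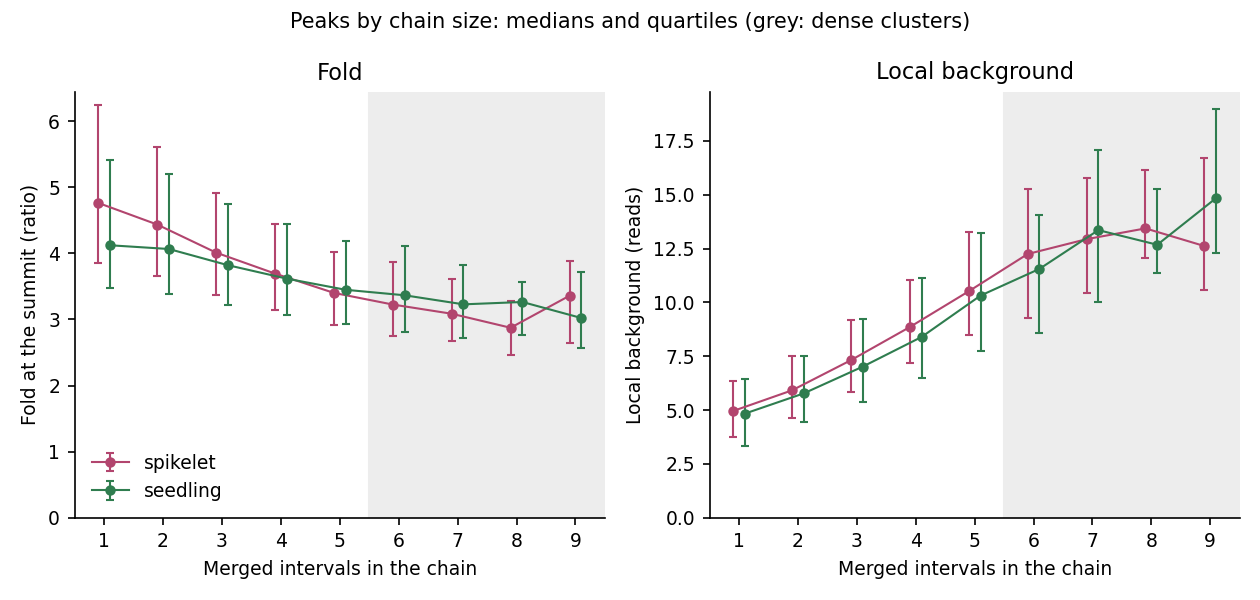
Fold at the summit (left, ratio) and local background (right, reads) of the MHSs of each list, as medians with quartiles, against the number of intervals in the chain. In the spikelet list the median fold was 4.76 in single intervals and 3.23 in chains of 6, and the median background 4.96 and 12.2 reads.

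Cluster MHSs reached a strict q at least as often as their lists did, but in the spikelet their median significance was lower. The −log10 of q, higher for a more significant MHS, had a spikelet median of 8.141 in clusters and 9.591 outside. Its seedling median was 8.398 in clusters and 6.916 outside. A q of 1e-05 or lower was reached by 1020 of the 1239 spikelet MHSs in clusters (82.3%), against 81.1% of the spikelet list. It was reached by 779 of the 978 seedling MHSs in clusters (79.7%), against 66.1% of the seedling list. A q above 0.01 was found for 0 spikelet and 4 seedling MHSs in clusters. In the whole lists it was found for 1169 of 277119 spikelet and 6157 of 289446 seedling MHSs. Cluster MHSs were slightly narrow, with a median of 308 bp in clusters and 336 bp outside in the spikelet, and 332 bp in clusters and 352 bp outside in the seedling.

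MHSs in intervals of 1 tissue had lower folds than those in shared intervals, inside clusters and outside. Outside, the median folds were 3.85 against 4.95 in the spikelet and 3.55 against 4.62 in the seedling. A weak MHS is more easily left without a call in the other list, and how much this adds was not tested. Spikelet MHSs in spikelet-only intervals had a median fold of 2.93, against 3.47 in shared intervals of the clusters. Seedling MHSs in seedling-only intervals had a median fold of 3.00, against 3.55 in shared intervals. Their backgrounds were close, at 12.9 and 12.0 reads in the spikelet and 12.6 and 11.6 reads in the seedling. Where 1 spikelet MHS met 1 seedling MHS, as in 591 of the 603 shared intervals, the median log2 ratio of spikelet to seedling fold was -0.01 in clusters, against 0.10 in the 173339 such intervals outside. The spikelet fold was the higher one in 49.4% of these pairs in clusters (45.4 to 53.4), against 59.3% outside. The log2 ratios in clusters had quartiles of -0.31 and 0.24 and a range of -2.34 to 1.40, against quartiles of -0.19 and 0.38 outside. The higher fold could thus be in either tissue. A fold depends on the local background too, so this ratio does not show which tissue had more reads. The summits of such pairs lay a median of 46 bp apart in clusters, with a highest value of 823 bp, and 53 bp outside.

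Among the clusters with MHSs of both tissues, the local background was similar in the lists for most and very different for a few. The ratio of the median spikelet to the median seedling background was 1.07 at the median of the 240 clusters, and 226 of them had a ratio between 0.5 and 2. In 10 clusters, picked out after the values were seen, the spikelet background was more than 2 times the seedling one, and in 8 of these more than 3 times, up to 14.3 times. The reverse held in 4 clusters, up to 2.68 times and in none over 3 times. The next highest ratio below these 10 was 1.81. In 4 of the 10 the seedling background was 2.64 reads, the lowest value in the seedling list, which 8.37% of its MHSs share and which acts as a floor. The ratios and seedling folds of these 4 are set against that floor, and the highest ratio above it was 9.08.

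These 10 clusters had 55 spikelet and 16 seedling MHSs. Of their 63 intervals 47 were spikelet only, 8 seedling only and 8 shared. Their spikelet background was 7.68 to 42.8 reads and their seedling background 2.64 to 6.02 reads, near or under the seedling list median of 5.48. The highest seedling fold of each cluster was 4.19 to 23.4, against 3.19 to 4.63 for the highest spikelet fold. Of the 7 seedling MHSs in clusters with a fold of 8 or more, 5 lay in these 10 clusters. A fold is lower over a higher background, and the 10 were picked by their backgrounds. The contrast in folds is thus in part set by the pick. None of the 10 was in subgenome A, 5 were in B and 5 in D. Of all 253 clusters 80 were in A, 80 in B and 93 in D, and 10 clusters are too few to show a subgenome pattern.

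**Figure D3:**
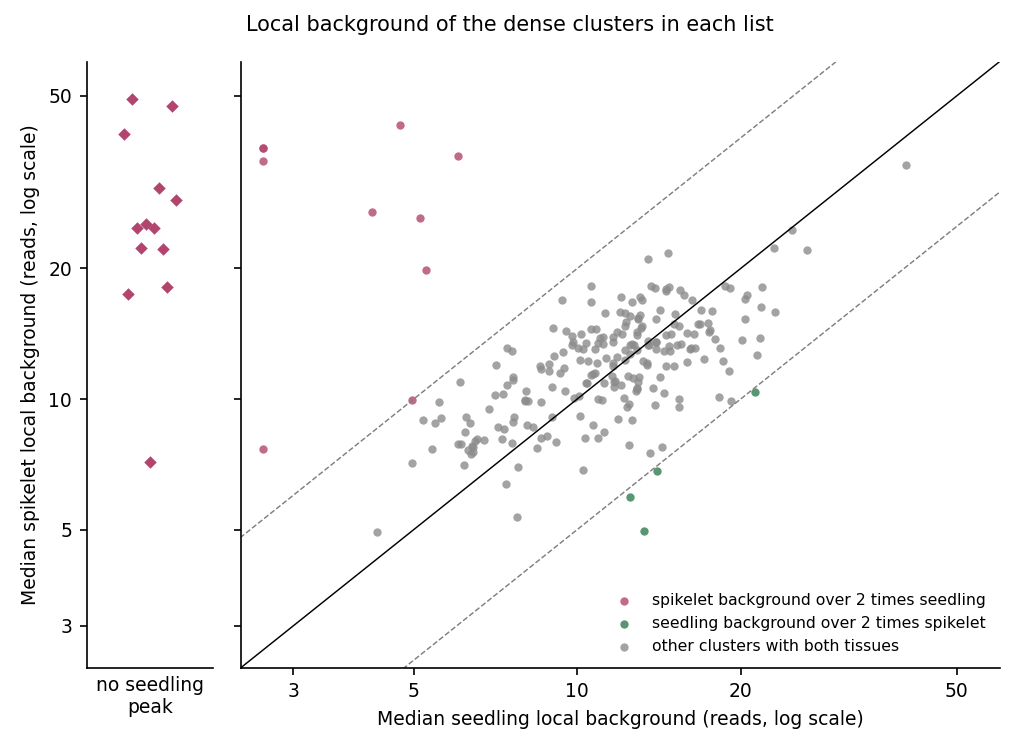
Median local background of each cluster in the spikelet list (vertical axis, reads, log scale) against that in the seedling list (horizontal axis, reads, log scale), with the 13 clusters without a seedling MHS in the strip on the left. The solid line is equality and the dashed lines a ratio of 2 either way; 226 of 240 clusters lie between the dashed lines, and the 10 above them reach 14.3 times.

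The cluster with the largest seedling fold showed this most plainly. It ran from 348168938 to 348173018 on part 2 of chromosome 3B, at 95.9% of the chromosome length, and its 6 intervals filled 89.0% of its 4081 bp. Its spikelet MHSs had pileups of 79 to 173 reads over a background of 36.2 to 36.6 reads, and folds of 2.15 to 4.63. Only the last interval had a seedling MHS. That MHS had a pileup of 163 reads over a background of 6.02, a fold of 23.4, next to a spikelet pileup of 173 reads and a fold of 4.63. The pileups of the tissues were thus nearly equal there, while the backgrounds under them were not.

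On part 2 of chromosome 5D a cluster ran from 31902832 to 31908985, with 4 spikelet-only, 1 seedling-only and 1 shared interval. Its spikelet background was 36.2 to 47.1 reads, and its seedling background 3.52 and 5.92 reads. The shared interval had a fold of 3.19 in the spikelet and 12.2 in the seedling.

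The 13 clusters without a seedling MHS had raised spikelet backgrounds as well. Their median spikelet background was 1.26 to 8.64 times the median of the list, with a median of 4.36 times, and was over 2 times in 12 of the 13. In the other 240 clusters the median was 2.16 times. Their median fold was 1.99 to 3.09. They spanned 3601 to 6994 bp, with a median of 5259 bp against 6882.5 bp in the other clusters. The nearest seedling MHS lay 2.05 to 180 kb away, with a median of 17.5 kb. There were 5 in subgenome A, 1 in B and 7 in D, and 6 lay in the outermost 10% of a chromosome. Of all 253 clusters 80 were in A, 80 in B and 93 in D, and 34.0% lay in the outermost 10%. Counts as small as those of the 13 show no pattern of place.

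The highest median spikelet background of any cluster was in one of these, from 264526077 to 264532255 on part 2 of chromosome 2A. Its 6 spikelet MHSs had backgrounds of 35.2 to 53.6 reads, pileups of 86 to 112 reads and folds of 1.83 to 3.12. The next highest, from 389243030 to 389247880 on part 1 of 6D, had a median background of 47.4 reads and 6 spikelet-only intervals with folds of 1.70 to 2.22. The single exception with a low background lay from 79640592 to 79644192 on part 1 of 4A, with 6 spikelet-only intervals, a median background of 7.14 reads and folds of 2.81 to 3.41.

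The makeup of the clusters was counted again without these groups. Without the 13 clusters and the 10 with a raised spikelet background, a choice made after seeing the data, 230 clusters were left. Their intervals were spikelet only in 33.9% (31.5 to 36.4), seedling only in 25.2% (23.0 to 27.5) and shared in 40.9% (38.4 to 43.4). The spikelet-only share thus stayed above the 23.9% of all intervals, and the seedling-only share of 25.2% lay under the 28.3%. A split of all clusters by background alone did not separate the tissues in the same way. In the 188 clusters with a median background over 2 times the list in either tissue, 38.7% of intervals were spikelet only, against 39.7% in the other 65, with seedling-only shares of 24.3% and 20.7%. The part that the background has in the shares of the tissues was not tested.

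A high background was not limited to spikelet-only clusters. The cluster from 7332833 to 7339691 on part 1 of 7B had 6 shared intervals and 1 seedling-only interval, and the highest seedling background of all clusters, with a median of 40.3 reads, next to 34.7 reads in the spikelet. Its folds were 1.91 to 2.81 in the spikelet and 2.00 to 3.70 in the seedling. Here the stretch was raised in both tissues alike, and the MHSs were shared.

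The 5 clusters of 9 intervals differed among themselves in makeup and background. The longest ran from 7103422 to 7117279 on part 1 of chromosome 5A, at 1.00% of its length, and spanned 13858 bp. It had 2 spikelet-only, 3 seedling-only and 4 shared intervals, with backgrounds of 8.28 to 11.5 reads in the spikelet and 9.14 to 14.9 reads in the seedling. Its MHSs had folds of 2.83 to 4.79 in the spikelet and 2.84 to 4.62 in the seedling. The midpoints of its intervals were the most evenly spaced of all 253 clusters, a mean of 1698 bp apart with a coefficient of variation of 0.09, where the median cluster had 0.45. What lies at this regular spacing was not analysed here.

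The second, from 66760664 to 66772753 on part 2 of 3D, spanned 12090 bp and had the most seedling-only intervals of any cluster. It had 1 spikelet-only, 5 seedling-only and 3 shared intervals. Its seedling background was 19.3 to 28.9 reads, against 11.8 to 13.5 in the spikelet. The seedling-only MHSs had folds of 2.01 to 2.63, and the shared intervals 2.36 to 3.45 in the seedling against 2.72 to 5.51 in the spikelet. In this cluster the tissue with more MHSs was the one with the higher background and the lower folds. The clusters with a raised spikelet background above cannot show whether this is general, since they were picked by their backgrounds. Those without a seedling MHS have no seedling background or fold to compare. Whether the tissue with more MHSs has the higher background across all clusters was not tested.

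On part 2 of 4D, a cluster from 46598982 to 46610089 spanned 11108 bp with 1 spikelet-only, 3 seedling-only and 5 shared intervals. Its strongest MHS was a seedling one in a shared interval, with a fold of 5.16 and a pileup of 82 reads, next to 3.09 and 43 reads in the spikelet. The second cluster on 5A, from 410194937 to 410205591 on part 1, spanned 10655 bp and had 3 intervals of each kind. It held a shared interval with a fold of 5.44 in the spikelet and 2.55 in the seedling. In these clusters shared intervals with the higher fold in different tissues lay in the same cluster. On 5A a seedling-only and a spikelet-only interval were 57 bp apart.

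The fifth, from 168245625 to 168255176 on part 1 of 6D, spanned 9552 bp and had the most spikelet-only intervals of any cluster, 8 of 9. Only the first interval was shared, with a fold of 10.4 and a background of 2.64 reads in the seedling, against 3.95 and 15.2 reads in the spikelet. From that edge the spikelet background climbed along the cluster to 44.0 reads, and the folds of the 8 spikelet-only intervals were 1.73 to 3.01. The seedling background of 2.64 reads is the floor of its list. The cluster is 1 of the 10 with a raised spikelet background.

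**Figure D4:**
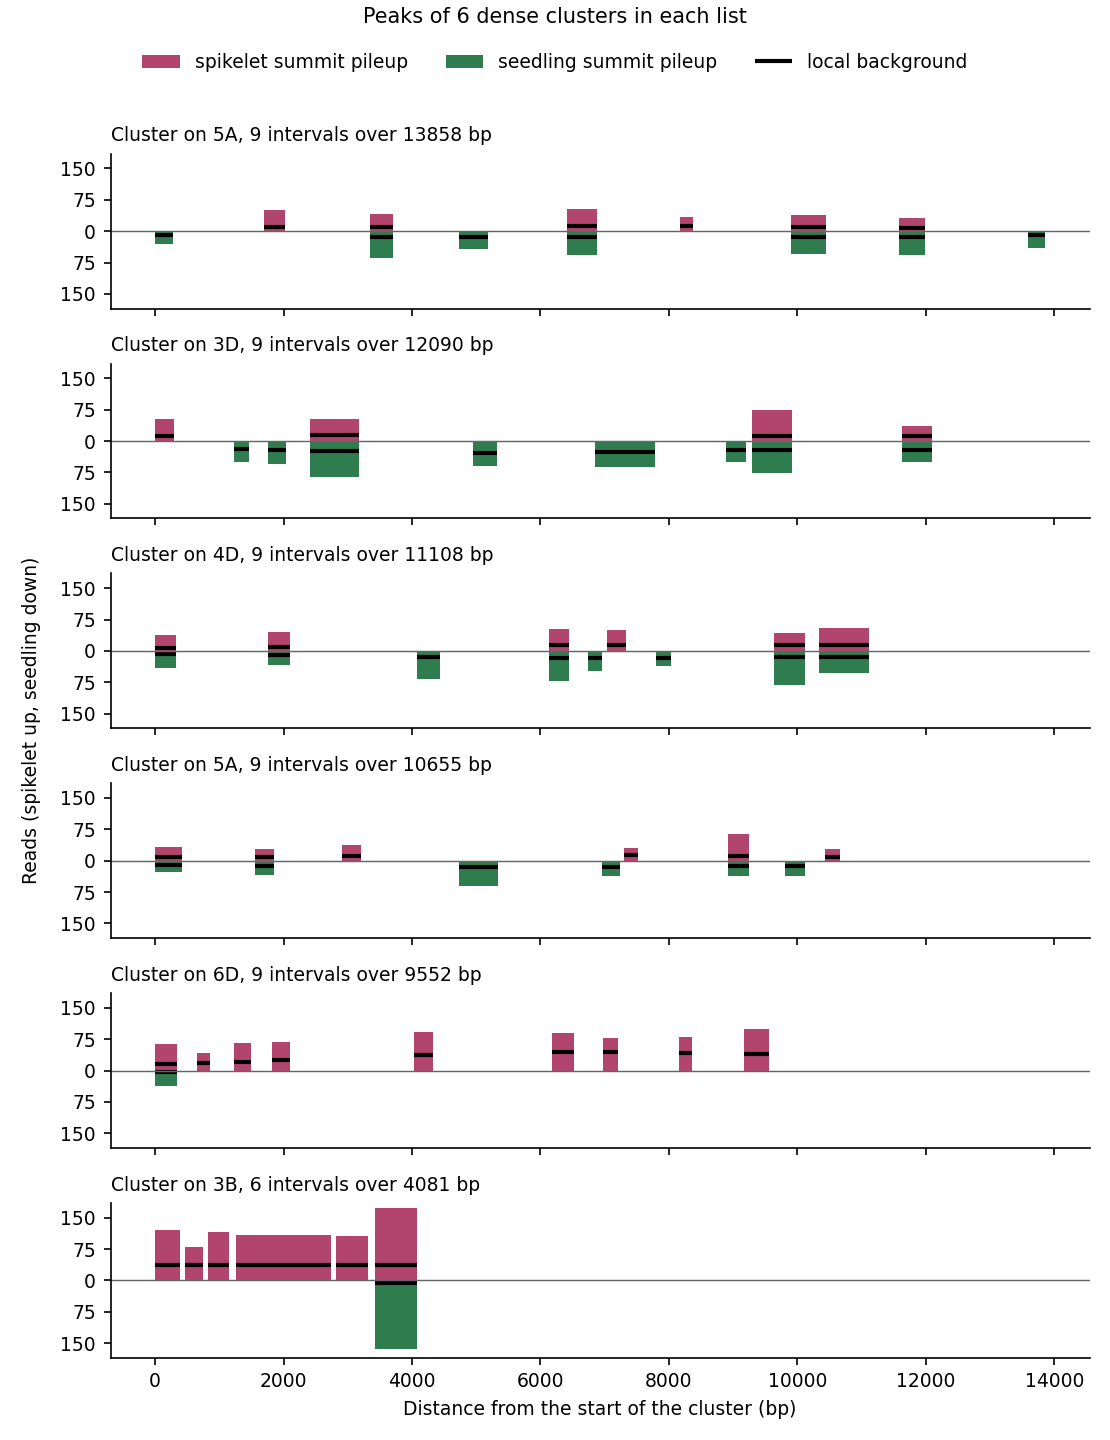
Pileup at the summit (vertical axis, reads; spikelet up, seedling down) and local background (black ticks, reads) of the strongest MHS of each list in every interval of 6 clusters, along the distance from the cluster's start (horizontal axis, bp). On 5A the longest cluster is evenly spaced with similar levels in both tissues, and on 6D and 3B the spikelet background reaches 44.0 and 36.6 reads while 1 interval has a seedling MHS.

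Of the 4 clusters with 7 spikelet-only intervals and no other, the one on part 1 of 7B ran from 137677602 to 137683992 and had no other MHS within 50 kb. Its pileups were 55 to 99 reads over backgrounds of 23.5 to 29.3 reads. The others lay from 131309645 to 131315505 (4A, part 2), from 254416032 to 254421036 (1D, part 1) and from 29690881 to 29695437 (5D, part 2), with median backgrounds of 24.7, 17.5 and 18.1 reads. The one on 1D had 24 other intervals within 50 kb, the most of all clusters. None of these had a seedling MHS, since the nearest seedling MHS lay 180 kb away.

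The seedling-rich clusters had fewer such intervals. After the one on 3D, the most seedling-only intervals were 4. Among the 12 clusters with at least 4 were those from 107037571 to 107046346 (2B, part 2), from 142875557 to 142884069 (4A, part 2), from 315479719 to 315487545 (5D, part 1) and from 41573090 to 41580569 (1D, part 2). Clusters with at least 4 spikelet-only intervals numbered 46. The cluster on 1D was 1 of the 4 with a seedling background over 2 times the spikelet one, with medians of 5.94 reads in the spikelet and 12.5 in the seedling.

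The largest spikelet fold of any cluster was 7.01, in the first interval of a cluster of 6 from 160795243 to 160801790 on part 1 of 2D. The seedling fold of that shared interval was 5.47. The cluster had 3 shared, 1 spikelet-only and 2 seedling-only intervals over backgrounds of 5.30 to 9.28 reads in the spikelet and 5.26 to 9.10 in the seedling. It stood among the clusters with a moderate background in both tissues.

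All 21 chromosomes had clusters, in both of their sequence parts. Subgenome D had 93, at 2.35 per 100 Mb (exact 95% Poisson interval 1.90 to 2.88), against 80 in A at 1.62 (1.29 to 2.02) and 80 in B at 1.54 (1.22 to 1.92). The D subgenome also has more merged intervals per Mb, with 30.1 against 25.7 in A and 25.6 in B. The D over A ratio of clusters per Mb was 1.45 (1.07 to 1.98), an interval that holds the ratio of 1.17 of all merged intervals, so clusters were not shown to favour D beyond the intervals themselves. Without the clusters of background over 2 times the list the ratio was 1.45 (0.75 to 2.83), and with a gap of 1000 bp 1.59 (0.67 to 3.87). Per 1000 merged intervals the numbers were 0.783 in D, 0.631 in A and 0.603 in B. The spikelet-only share of cluster intervals was 41.8% in D, 37.4% in A and 37.1% in B, with overlapping intervals.

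Chromosome 2D had the most clusters, 22, at 3.38 per 100 Mb (2.12 to 5.11). It was followed by 5D with 16 and 5A with 15. Chromosome 2D was also highest per 1000 merged intervals, at 1.11. On that scale 4B (0.948) and 4D (0.926) came before 5D (0.880) and 5A (0.784). Chromosome 7B had the fewest, 7, at 0.93 per 100 Mb (0.37 to 1.92). By homoeologous group, the set of matching chromosomes of the A, B and D subgenomes, group 2 had 50 clusters and group 7 had 25. Per 1000 merged intervals the groups ran between 0.417 in group 7 and 0.881 in group 4. Per 1000 merged intervals 7A had 0.443, 7B 0.361 and 7D 0.445, the 3 lowest values of the 21 chromosomes and next to 0.477 on 3A. Per 100 Mb 7D, at 1.41, was above 3A at 1.20, 6B at 1.25 and 6A at 1.29. On single chromosomes these numbers are small, and neighbours in their order do not differ beyond their intervals.

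At the chromosome ends the share of clusters was close to that of all intervals. Of the 253, 86 had their midpoint in the outermost 10% at either end (34.0%, 28.4 to 40.0), against 34.6% of all merged intervals. They did lean to one side of the chromosomes. The second part of the length, past the middle, held 167 clusters (66.0%, 60.0 to 71.6), against 57.3% of all intervals. The windows given next were picked from the bins of 10% of the length for their high and low values, so they are no further support for that lean. Between 70% and 90% of the length lay 75 clusters (29.6%, 24.4 to 35.5), against 23.1% of all intervals. Between 30% and 50%, where MHSs were sparse, lay 15 (5.93%, 3.63 to 9.55), against 10.4%. In this reference the chromosomes start at the short arm, so the later positions are on the long arm. The share at the ends depended on the gap allowed, and with gaps of up to 5000 bp 41.3% of 3396 clusters lay there.

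**Figure D5:**
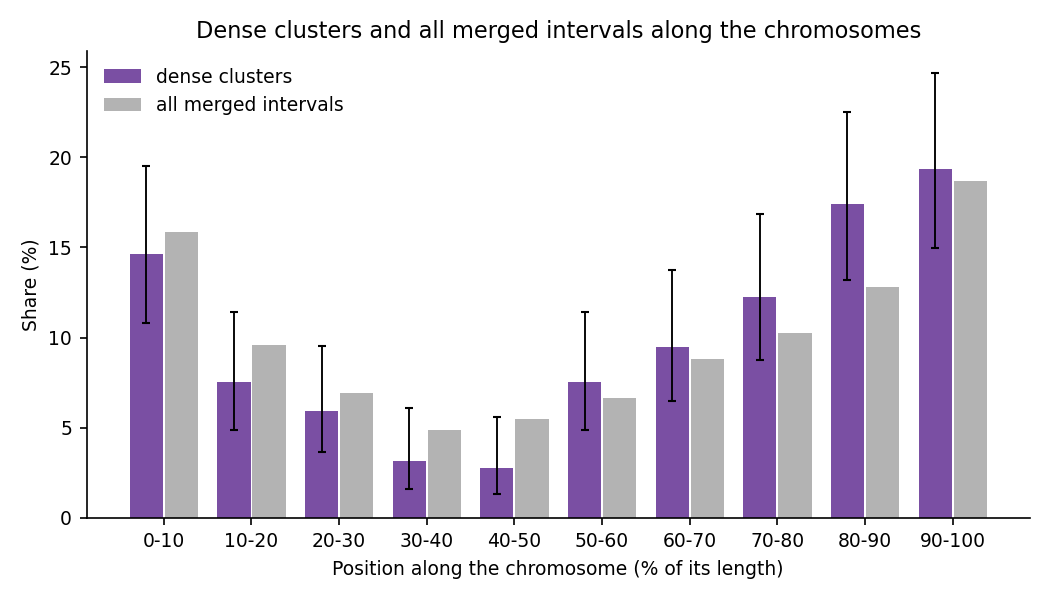
Share of the 253 clusters (purple, with 95% Wilson intervals) and of all 378324 merged intervals (grey) in bins of 10% of the chromosome length (horizontal axis, % of length). Clusters hold a share of 17.4% between 80% and 90%, against 12.8% of all intervals, and 2.77% between 40% and 50%, against 5.47%.

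Clusters at the ends and elsewhere had a similar makeup. Spikelet-only intervals were 40.3% (36.2 to 44.4) of those in clusters at the ends and 38.2% (35.3 to 41.2) of those in the other clusters. Among all intervals the same shares were 25.9% at the ends and 22.9% elsewhere. The median background of a cluster relative to its list was 2.13 times at the ends and 2.27 times elsewhere in the spikelet, and 2.10 and 2.16 times in the seedling. The higher spikelet-only share of the clusters was thus seen at the ends and away from them.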

How the data were processed

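The 253 clusters and the lists described here were chosen with earlier results of these data known. Trimming, mapping with Bowtie2 (IWGSC reference, version 1.0), removal of duplicates and of poorly mapped reads, merging of the 2 replicates and peak calling with MACS2 (2.0 in the submitters' processing notes) were done by the authors. The deposited score is 10 times the −log10 q without its decimals. The fold is the authors' ratio of summit pileup to local background, with 1 added to each. The authors' −log10 values of p and q belong to the summit. Read depth is not given in the sources used here, and the precision of a single peak rests on its pileup.

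All peaks of the lists were kept and merged by overlaps of at least 1 bp on each sequence part. Pileup and background were solved from fold and p by the MACS2 formula, and the pileup came out whole within 0.05 for 100% of the peaks. Chromosome length was taken as the last peak end on each part. Intervals of shares are Wilson intervals at 95% and of densities exact Poisson intervals, for counting error alone. No test was run, since each tissue has 1 list and the clusters were chosen from the same peaks. Clusters named by position are those with the most intervals, overall and on each chromosome, the longest span, the most intervals of 1 tissue, the most even spacing, the highest background or the largest fold; others were named after their values were seen. The chaining and the recovery were tested on simulated data. Genes and sequences under the clusters were not analysed here, since the gene table at hand follows another genome build. The work used matplotlib 3.10.9, pandas 2.3.3, scipy 1.17.1 and numpy 2.4.6 under Python 3.11.15.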

Additional observations from a re-analysis of the deposited data

How the results depend on the processing

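Of 78 values recomputed under other settings, 45 stayed close to those reported, which means within 1.5 times for the number of clusters and within the 95% interval of the reported value for the others. The D over A ratio of clusters per Mb, 1.45 (1.07 to 1.98), was recomputed in 11 settings and was 1.24 to 1.73. Its own interval held 1 with a gap of 1000 bp (0.67 to 3.87), with MHSs merged within 100 bp (0.99 to 2.00), without clusters of background over 2 times the list (0.75 to 2.83) and without the 23 clusters described at the end (0.97 to 1.87). The number of clusters was 107 with a q of 1e-05 or lower, 39 with a gap of 1000 bp, 3396 with a gap of 5000 bp, 1021 from 5 intervals up, 71 in the spikelet list alone and 19 in the seedling list alone. No cluster was left with at least 10 intervals. The spikelet-only share was 43.7% with a q of 1e-05 or lower, 42.5% with a gap of 1000 bp, 31.0% with a gap of 5000 bp, and 41.8% where a shared interval had to be covered by both lists over 50% of its length. In these settings it was above that of all intervals, 29.9%, 23.9%, 23.9% and 27.0%. The seedling-only share was 20.6% with a gap of 5000 bp, 27.1% with the 50% rule and 29.9% of bases covered, against 28.3%, 33.8% and 33.9% of all. The share of clusters at the ends was 28.2% with a gap of 1000 bp and 41.3% with 5000 bp, against 34.6% of all intervals, and 20.2% and 58.9% for the outermost 5% and 20%, against 19.5% and 57.0%.

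The median spikelet fold was 3.28 with a q of 1e-05 or lower, 3.05 and 3.69 with gaps of 1000 and 5000 bp, 3.34 from 5 intervals up and 3.47 in shared intervals. The median seedling fold was 3.51, 3.17, 3.71, 3.40 and 3.55 in the same settings. Each was under the median outside the clusters, 4.45 to 4.95 in the spikelet and 4.05 to 4.70 in the seedling. Of the settings chosen after seeing the data, leaving out clusters with a background over 2 times the list left 65, with a seedling-only share of 20.7% and median folds of 3.74 in the spikelet and 3.66 in the seedling. Leaving out the 13 clusters without a seedling MHS and the 10 with a raised spikelet background gave a spikelet-only share of 33.9% and a median spikelet fold of 3.25. The cause of these shifts was not tested. No paired analysis was possible because the replicates of both tissues had been merged into 1 list each.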
